A study of Mus musculus with 6 samples.

Results

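The genes described here encode the proteasome, the cell's main machine for breaking down proteins tagged with ubiquitin. They were taken as every symbol in the count tables that begins with Psma, Psmb, Psmc, Psmd or Psme followed by a digit, which gave 44 of 19178 symbols. They comprise 7 alpha and 7 beta genes of the constitutive core, 3 immunoproteasome genes, 6 ATPase and 11 non-ATPase genes of the regulatory particle, 4 activator genes and 3 base assembly factors (*Psmd5*, *Psmd9* and *Psmd10*). The other members were the thymoproteasome gene *Psmb11*, the *Psme2* retrogene *Psme2b*, and *Psmc3ip*, which shares the name stem but encodes a meiotic recombination factor and not a subunit. All 44 were followed in barcodes that showed 300 genes or more and no more than 25% mitochondrial counts, which were 4890 of 13191 barcodes. Together they held 102059 counts in these cells. *Psmb11* had 4 counts in all and entered no test.

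The core is a barrel of stacked rings: alpha subunits form the outer rings and gate the entry, and beta subunits form the inner rings and carry the proteolytic sites. *Psmb6*, *Psmb7* and *Psmb5* encode the constitutive caspase-like, trypsin-like and chymotrypsin-like sites. Interferon-responsive cells can build *Psmb9*, *Psmb10* and *Psmb8* into those positions instead, which forms the immunoproteasome and favours peptides suited to MHC class I. The regulatory particle caps the core, with ATPases that unfold the substrate and non-ATPases that bind and trim ubiquitin. *Psme1* and *Psme2* encode the PA28 activator, an ATP-independent cap that is also induced by interferon. The small-intestinal crypt holds proliferating stem cells that give rise to absorptive and secretory cells, with lymphocytes within and beneath the epithelium.

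Crypt cells were profiled by Drop-seq, in which droplets pair a cell with a barcoded bead and transcripts are counted from their 3′ ends by unique molecular identifiers. The cells were freshly isolated from the small intestine of untreated C57BL6 mice aged 10 weeks, as 3 collections labelled *Ptger4* epithelial knock-out and 3 labelled *Ptger4* flox. *Ptger4* encodes a prostaglandin E receptor. The Cre driver, the deleted stretch and the Cre status of the flox mice were not stated in the labels. The study counts 2 biological replicates per genotype, and the sample codes were read as placing collections 1 and 2 of each genotype in biological replicate 1 and collection 3 in biological replicate 2. Below, values of the 4 biological replicates are given in the order knockout 1, knockout 2, flox 1 and flox 2. Genotype p-values rest on the spread between replicates of the same genotype. For comparisons between classes, p-values rest on how alike the class difference was across replicates.

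Total counts per collection ran from 1228337 to 3146909, kept cells from 473 to 1053, and the median count of a kept cell from 1070 to 1471.5. *Ptger4* had 26, 26 and 59 counts in the knockout collections and 36, 14 and 32 in the flox collections, so its 3′ counts did not separate the genotypes and did not check the labels. Collections shared cell barcodes within 2 sets and not across them: knockout 1 with flox 1 and flox 2, and knockout 2, knockout 3 and flox 3 with each other. In all, 53 distinct barcodes and 133 kept cells were involved. Cells were clustered with the 44 genes left out of the variable genes, and clusters were named from marker lists. The named classes were stem cell-like (553 cells), cycling-like (639), enterocyte-like (849), goblet-like (717), Paneth-like (189), enteroendocrine-like (95), tuft-like (58), B or plasma cell-like (237) and T or NK-like (150). Clusters with 1403 cells (28.7%) stayed unnamed and were counted as epithelial. The stem cell-like class was itself proliferative: its cycling markers summed to 6870 CPM (counts scaled to the total counts of the class in each replicate), against 7652 in the cycling-like class and 818 in the enterocyte-like class.

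The catalytic genes carry most of the results below, so stretches upstream of the RefSeq start of 4 of them are shown first, from RefSeq on build GRCm38.p6, 5′ to 3′ on the gene's strand. *Psmb8* lies at chr17:34197721-34201454 on the plus strand inside the MHC class II region, between the peptide transporter genes *Tap1* (chr17:34187553-34197225, plus strand) and *Tap2* (chr17:34203527-34216321, plus strand). *Psmb9* (chr17:34181987-34187764, minus strand) overlaps the start of *Tap1* on the opposite strand, and *Psmb10* sits apart from them at chr8:105935735-105938444 on the minus strand. *Psmb8* and *Psmb10* also overlap antisense genes, and *Psmb5*, *Psmb6* and *Psmb7* have annotated pseudogenes. Whether the counting used strand or split such reads is not stated, so these genes' counts may include reads of their partners. Capitals mark a match to TTCNNNGAA, the gamma-activated site form, in *Psmb8*, and matches to TGACNNNGC, the antioxidant response form bound by NFE2L factors, in *Psmb6* and *Psmb5*. The stretches are chr17:34198088-34198116 on the plus strand for *Psmb8*, chr8:105938445-105938512 on the minus strand for *Psmb10*, chr11:70525237-70525356 on the plus strand for *Psmb6* and chr14:54618023-54618115 on the minus strand for *Psmb5*.
Psmb8: tcctccgctgTTCCCAGAAgatgcccccc
Psmb10: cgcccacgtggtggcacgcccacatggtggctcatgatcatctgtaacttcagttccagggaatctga
Psmb6: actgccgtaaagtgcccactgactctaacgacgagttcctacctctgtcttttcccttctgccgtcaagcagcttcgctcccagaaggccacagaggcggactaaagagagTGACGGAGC
Psmb5: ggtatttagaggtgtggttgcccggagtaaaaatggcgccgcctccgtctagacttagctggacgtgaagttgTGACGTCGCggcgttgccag
RefSeq and the gene interval given above place the start of *Psmb8* differently: its stretch is upstream of the RefSeq start but inside that interval. The stretches of *Psmb10* and *Psmb5* end 53 and 28 bases before the RefSeq start, as annotated exon bases nearer to it were left out. The matches begin 97 bases before the RefSeq start of *Psmb8*, 9 before that of *Psmb6* and 47 before that of *Psmb5*. Of the 44 members, 38 had a promoter in the table. Searched on both strands over the 250 bases before each start, TTCNNNGAA was in 1 of the 38 (*Psmb8*) and in at least 1 promoter of 8.13% of 27025 genes (7.2% of the 8102 of them tested in any comparison here). TGACNNNGC was in 5 (*Psmb5*, *Psmb6*, *Psmc6*, *Psmd12* and *Psmd9*) and in 11.5% of all genes (14.2% of those tested). The interferon-stimulated response element form, GAAA repeated after any 2 bases, was in 3 (*Psmb3*, *Psmd4* and *Psmd9*) and in 3.46% of all genes (3.14% of those tested). A match is a description of letters and not a measured binding site.

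All members together made up 0.885% of the counts of kept cells. Their summed level was highest in the proliferating crypt classes, at 10067 ± 422 CPM in cycling-like and 9625 ± 353 in stem cell-like cells (mean ± SD, n = 4 biological replicates here and for the sums that follow). It was 8404 ± 234 in enterocyte-like, 7878 ± 434 in goblet-like and 7331 ± 814 in immune cells. The Paneth-like cluster was not alike across replicates, and its values here and below describe that cluster alone. Its Paneth markers summed to 7826, 258077, 63354 and 43184 CPM, beside a mean of 5219 in goblet-like cells. Enterocyte markers also reached a mean of 14559 CPM in it. Only 27 cells kept the name at Leiden resolution 0.5 and 21 at the 10% mitochondrial limit. Its members summed to between 4043 and 9730 CPM and could not be placed in the order.

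The parts of the proteasome did not share this order. The alpha genes summed to 2905 ± 179 CPM in stem cell-like and 2717 ± 191 in cycling-like cells, against 2129 ± 29.3 in enterocyte-like and 2074 ± 165 in goblet-like cells. The constitutive beta genes ran from 2008 ± 182 in cycling-like and 1933 ± 149 in stem cell-like cells to 1581 ± 95.9 in enterocyte-like and 1600 ± 169 in goblet-like cells. The 3 immunoproteasome genes ran the other way between stem cell-like cells, at 653 ± 49.3, and enterocyte-like cells, at 966 ± 108, with goblet-like cells at 660 ± 97.8. Cycling-like cells, also proliferating, lay between stem cell-like and enterocyte-like cells, at 827 ± 145. Among classes with replicates *Psmb9* alone of these genes was highest in cycling-like cells, at 130.7 CPM. The activator genes were highest in enterocyte-like cells, at 1210 CPM against 1150 in cycling-like, 1078 in stem cell-like and 874 in goblet-like cells. Both parts of the regulatory particle followed the core: the ATPase genes were at 1136 CPM in stem cell-like and 947 in enterocyte-like cells, and the non-ATPase genes at 1646 and 1318. Within the epithelium single members ranged from *Psma1* at 157.7 to *Psma7* at 982.6 CPM among the alpha genes and from *Psmb7* at 78.9 to *Psmb1* at 416.3 among the beta genes. Such values are 3′ tag counts without a length term, and capture can differ between genes.

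**Figure D1:**
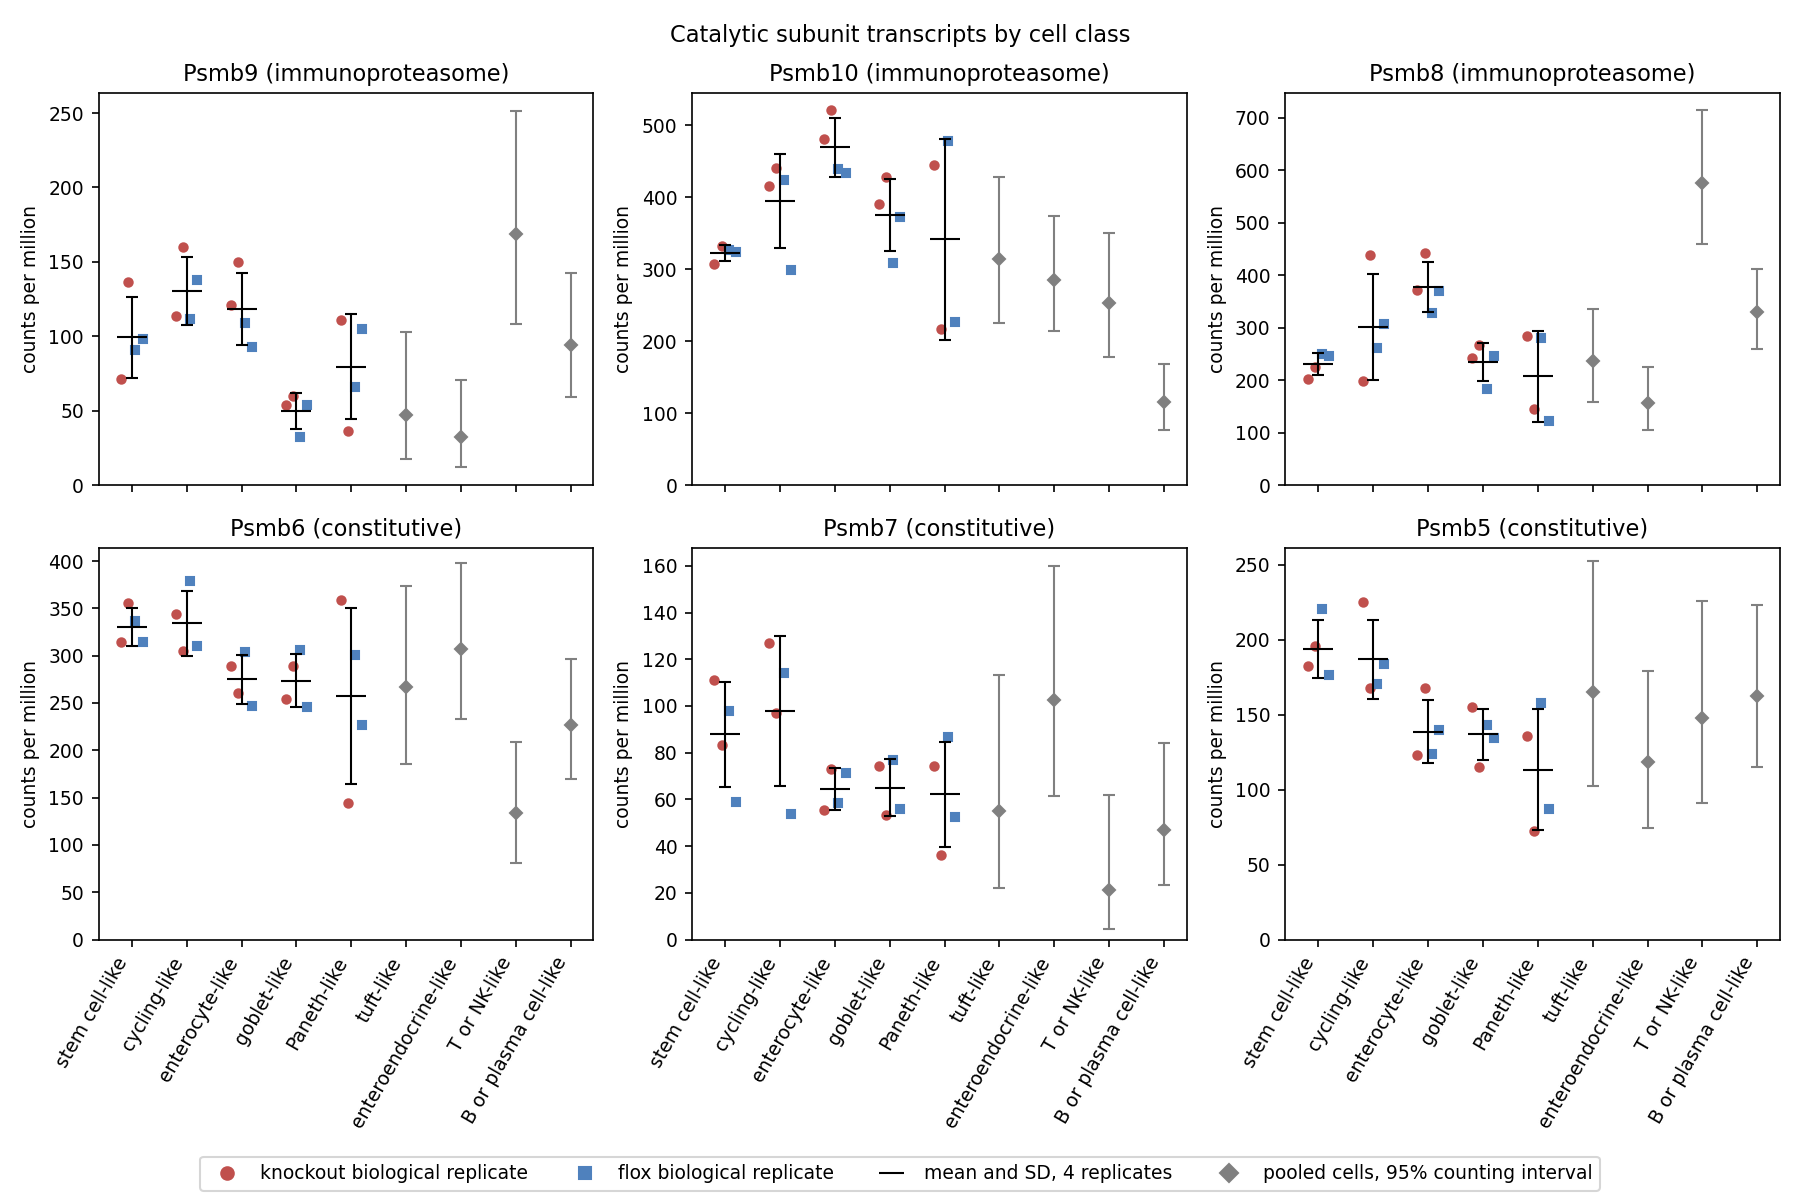
Level of the 3 immunoproteasome catalytic genes (top) and their constitutive counterparts (bottom), in CPM on a linear axis from 0, by cell class. Circles and squares are the knockout and flox biological replicates with their mean and SD (n = 4), and grey diamonds are pooled cells of classes with under 20 cells in a replicate, with exact 95% Poisson intervals. *Psmb8* and *Psmb10* in every enterocyte-like replicate stand above every stem cell-like replicate, and *Psmb5* in every enterocyte-like replicate stands below.

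The first question was how the genes differ between the enterocyte-like class and the stem cell-like class, which was itself proliferative. Enterocyte-like cells had more transcript of all 3 immunoproteasome genes and of *Psme2* than stem cell-like cells, and less of most alpha genes and of *Psmb2*, *Psmb5* and *Psmb7*. *Psmb8*, the immunoproteasome's chymotrypsin-like subunit, was at 371.9, 442.8, 327.5 and 370.2 CPM in enterocyte-like cells and at 202.6, 225.6, 249.5 and 245.3 in stem cell-like cells. The classes did not overlap, and the log2 fold change was 0.78 ± 0.13 (SE; adjusted p = 6.55e-09, edgeR quasi-likelihood test with Benjamini-Hochberg adjustment over all genes, as for every adjusted p below). *Psmb10*, the trypsin-like subunit, was at 481.3, 521.9, 439.6 and 434.3 CPM against 307.3, 332.4, 326.6 and 323.8. These groups were also apart in every replicate, with a log2 fold change of 0.64 ± 0.12 (adjusted p = 4.21e-07).

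*Psmb9*, which takes the place of the caspase-like *Psmb6*, rose less and its classes overlapped. It was at 121.2, 150.2, 109.2 and 92.5 CPM in enterocyte-like and 71.3, 136.5, 91.0 and 98.1 in stem cell-like cells, with a log2 fold change of 0.41 ± 0.18 (adjusted p = 0.0422). This call held in 6 of 19 alternative analyses. *Psme2*, a PA28 subunit, was at 647.9, 660.3, 477.0 and 626.5 CPM against 449.8, 486.7, 457.6 and 515.2, higher in enterocyte-like cells within each replicate (log2 fold change 0.42 ± 0.11, adjusted p = 3.61e-04). Its partner *Psme1* had a log2 fold change of 0.23 ± 0.11 that did not pass (adjusted p = 0.0665). A limit of at most 10% mitochondrial counts also changed which cells were named in both classes. The enterocyte-like class was then a cluster of 391 cells led by *Apoa1*, in place of 849 cells. The stem cell-like class was then a cluster of 469 cells with 3 of 18 stem cell markers enriched. In the main clustering it had 553 cells with 13 of 18 enriched. At that limit *Psmb8* was at a log2 fold change of 0.35 (adjusted p = 0.0540) and *Psme2* at 0.29 (adjusted p = 0.0612). *Psmb10* passed in 19 of 19 alternatives.

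Of the constitutive catalytic genes *Psmb5* passed as lower, *Psmb7* did so only at the threshold, and *Psmb6* did not pass. *Psmb5* was at 122.8, 168.0, 124.1 and 140.0 CPM in enterocyte-like and 182.6, 195.9, 220.5 and 176.6 in stem cell-like cells, without overlap. Its log2 fold change was -0.44 ± 0.15 (adjusted p = 0.0073), which passed in 13 of 19 alternatives. At Leiden resolution 0.5 it was 0.03 (adjusted p = 0.823), but both classes then held other cells. No separate cycling-like class was left, and the enterocyte-like class had 1414 cells in place of 849. It then held a cluster of 989 cells with *Fabp6*, *Reg3g* and *Akr1c19* among its leading genes. In the main clustering the unnamed cluster led by *Akr1c19* had *Psmb5* at 271 ± 61.4 CPM. The part of each change was not tested. *Psmb7* was at 55.5, 73.1, 58.3 and 71.2 CPM against 111.3, 83.1, 97.9 and 58.9 (log2 fold change -0.45 ± 0.21, adjusted p = 0.04995), a call at the threshold that held in 7 of 19 alternatives. *Psmb6* was at 289.5, 260.9, 303.6 and 246.8 CPM against 313.9, 356.1, 336.3 and 314.0 (log2 fold change -0.13, adjusted p = 0.360).

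Of the 42 members tested in this comparison, 4 rose and 18 fell, where 32.2% of all 7044 genes tested rose and 30% fell. DESeq2 called 3 higher and 6 lower. The members' median log2 fold change was -0.22, beside 0.05 over all genes tested, and over the same genes DESeq2 gave -0.20 and 0.08. By part, 6 of 7 alpha genes fell (all but *Psma4*), as did 4 of 7 constitutive beta genes, 2 of 6 ATPase genes (*Psmc3* and *Psmc6*) and 3 of 11 non-ATPase genes (*Psmd7*, *Psmd12* and *Psmd14*). *Psme3*, which encodes a nuclear activator, the assembly factor *Psmd5* and *Psmc3ip* fell as well. *Psma7*, an outer-ring subunit, was at 858.3, 893.5, 856.8 and 821.1 CPM in enterocyte-like and 1144.5, 1317.7, 1246.0 and 1182.5 in stem cell-like cells (log2 fold change -0.40 ± 0.10, adjusted p = 6.44e-05). The lowest stem cell-like replicate lay well above the highest enterocyte-like one. *Psmd7*, a lid subunit of the regulatory particle, was at 163.2, 152.2, 222.8 and 163.7 CPM against 325.1, 261.2, 328.0 and 260.1 (log2 fold change -0.64 ± 0.14, adjusted p = 9.39e-06). *Psma5* (log2 fold change -0.60 ± 0.15) and the inner-ring gene *Psmb2* (-0.57 ± 0.16) were likewise lower in every enterocyte-like replicate than in any stem cell-like one. *Psmc3ip* had 2 counts in all enterocyte-like cells and 30 in stem cell-like cells, so its log2 fold change of -3.94 ± 0.82 rests on few molecules.

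The enterocyte-like class joined 2 clusters, one of 444 cells led by *Fabp6* and one of 405 led by *Apoa4*. *Psmb8* was close in both, at 388 ± 53.0 and 370 ± 53.7 CPM (SD, n = 4), and *Psme2* was at 593 ± 63.7 and 613 ± 129. *Psmb9* was at 143 ± 33.0 in the *Fabp6*-led cluster. In the *Apoa4*-led cluster it was at 97.7 ± 36.7, close to 99.2 ± 27.3 in stem cell-like cells. *Psma7* was at 1014 ± 60.25 in the *Fabp6*-led and 716 ± 18.8 in the *Apoa4*-led cluster, beside 1223 ± 76.0 in stem cell-like cells. *Psmb5* was at 174 ± 28.3 in the *Fabp6*-led and 107 ± 17.1 in the *Apoa4*-led cluster, and with the larger cluster of each class alone the count of members passing in the comparison was 4 higher and 5 lower. An unnamed cluster of 579 cells led by *Akr1c19*, *Pycard* and *Reg3g* held both sets high at once, with *Psmb8* at 402 ± 92.9, *Psme2* at 729 ± 38.9, *Psmb5* at 271 ± 61.4 and *Psma7* at 1336 ± 237 CPM. The summed level of 18 immune-gate genes was 33 CPM in enterocyte-like and 26 in stem cell-like cells (ranges 21 to 61 and 6 to 39), beside 27882 in T or NK-like cells. Mean mitochondrial share was 5.80% in enterocyte-like and 3.90% in stem cell-like cells. Its part in the result was not tested beyond the 10% limit above, which also changed the cells of both classes.

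**Figure D2:**
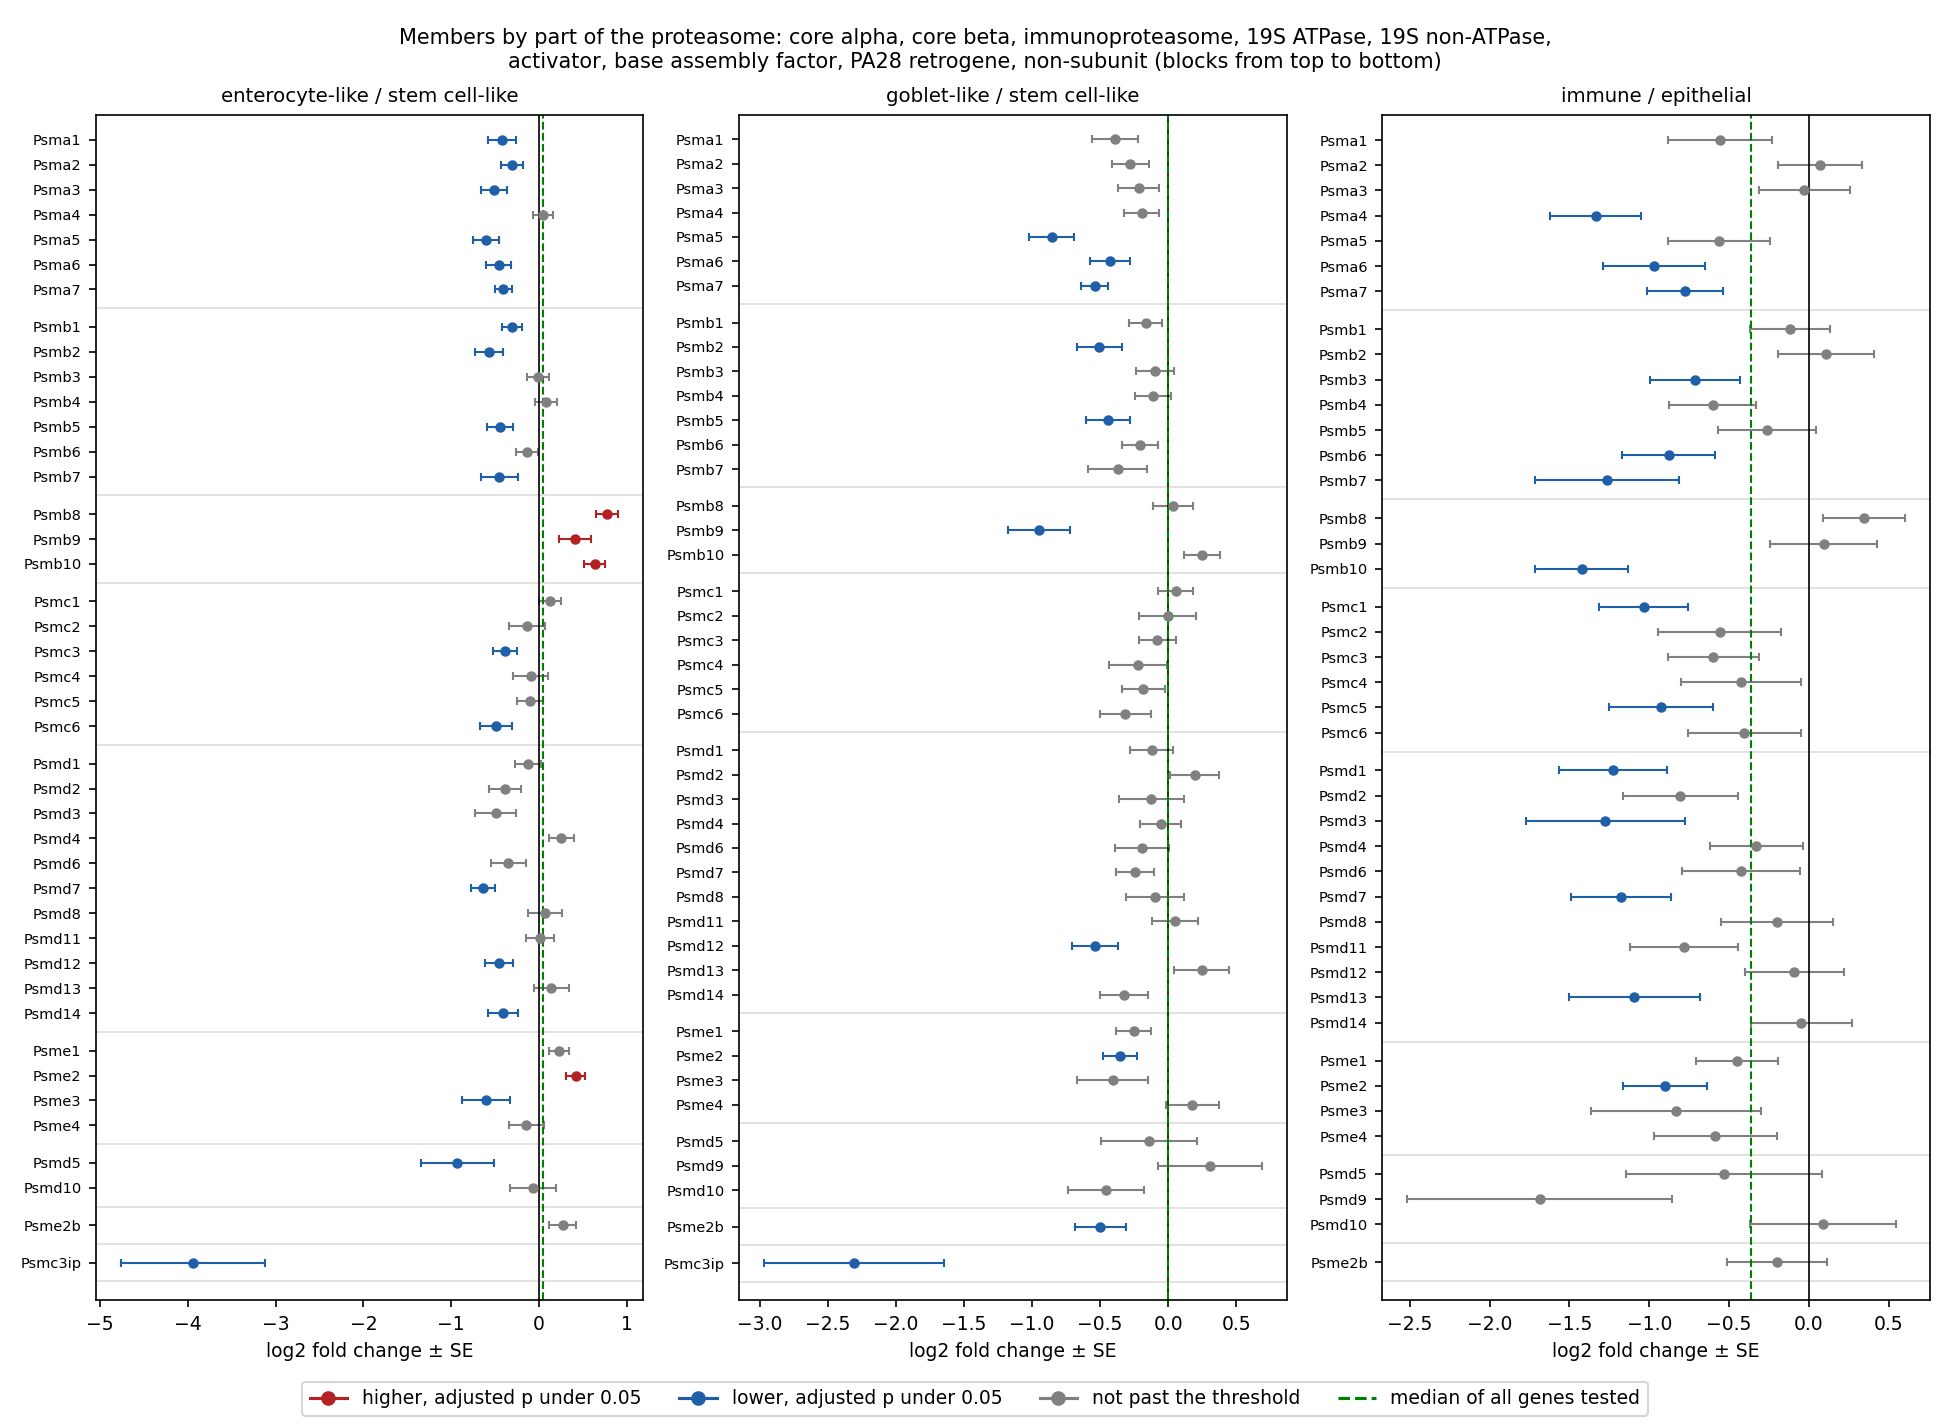
Log2 fold change ± SE of each member tested, in blocks by part of the proteasome, for enterocyte-like against stem cell-like, goblet-like against stem cell-like and immune against epithelial cells. Red and blue points passed an adjusted p of 0.05 in the higher and lower direction, grey points did not, and the dashed line is the median of all genes tested. In the left panel the 4 red points are the 3 immunoproteasome genes and *Psme2*.

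Goblet-like cells, the mucus-secreting class, gave a different picture of the same genes. Of 43 members tested against stem cell-like cells none rose and 10 fell, where 20.6% of all 7148 genes tested rose and 20.6% fell, so the share of members that fell was close to that of all genes. The members' median log2 fold change was -0.21 and that of all genes 0.00. The genes that fell were *Psma5*, *Psma6*, *Psma7*, *Psmb2*, *Psmb5*, *Psmb9*, *Psmd12*, *Psme2*, *Psme2b* and *Psmc3ip*. *Psmb9* was at 53.8, 60.2, 32.3 and 53.8 CPM, below every stem cell-like replicate, with a log2 fold change of -0.95 ± 0.23 (adjusted p = 6.58e-04). *Psma5* was at 146.8, 102.7, 132.1 and 107.6 CPM against 216.0, 255.2, 219.1 and 255.1 (log2 fold change -0.86 ± 0.16, adjusted p = 2.13e-05). *Psma7* was at 843.6, 772.2, 875.5 and 734.1 CPM (log2 fold change -0.54 ± 0.10, adjusted p = 1.31e-05). These 3 genes passed in 18 of 18 alternatives. The goblet-like class joined a cluster of 538 cells led by *Zg16* and a cluster of 179 led by *Ccl9*. *Psma7* was at 763 ± 64.6 CPM in the *Zg16*-led and 1156 ± 212 in the *Ccl9*-led cluster (SD, n = 4), beside 1223 ± 76.0 in stem cell-like cells. Its lower level was thus mainly that of the *Zg16*-led cluster. *Psmb9* was close in both, at 50.3 ± 14.2 and 46.4 ± 25.3, and *Psmb5* was at 132 ± 17.8 and 171 ± 30.5.

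*Psme2* in goblet-like cells was at 401.1, 391.4, 279.5 and 384.4 CPM, lower than in every stem cell-like replicate, with a log2 fold change of -0.36 ± 0.12 (adjusted p = 0.0176) that passed in 10 of 18 alternatives. *Psmb5* (log2 fold change -0.45 ± 0.16, adjusted p = 0.0237) passed in 8 of them and the lid gene *Psmd12* (-0.54 ± 0.17, adjusted p = 0.0082) in 13. *Psmb8* had a log2 fold change of 0.04 (adjusted p = 0.875), *Psmb10* of 0.25 (adjusted p = 0.128), *Psme1* of -0.25 (adjusted p = 0.102), *Psmb6* of -0.21 and *Psmb7* of -0.37, and none of these passed. *Psmb10* did pass as higher in 5 of 18 alternatives, one of them the limit of at least 600 genes (0.41, adjusted p = 0.0216).

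Cycling-like and stem cell-like cells were close. Of 43 members 1 rose and 1 fell, where 9.41% of all 6866 genes tested rose and 10.9% fell. *Psmc1*, an ATPase of the regulatory particle, was at 457.4, 397.3, 431.0 and 479.0 CPM in cycling-like cells and 316.2, 362.1, 300.5 and 397.4 in stem cell-like cells, higher in each replicate with ranges that just met (log2 fold change 0.33 ± 0.11, adjusted p = 0.0186; 6 of 17 alternatives). *Psmc3ip* had a log2 fold change of -1.59 ± 0.56 (adjusted p = 0.0278), and it passed in 4 alternatives and missed in 5. *Psmb8* (0.21), *Psmb9* (0.33) and *Psmb10* (0.24) did not pass, with adjusted p of 0.261, 0.190 and 0.133. Among cells with at least 600 genes *Psmb8* (0.58, adjusted p = 0.0085), *Psmb10* (0.45, adjusted p = 0.0181) and *Psme2* (0.37, adjusted p = 0.0433) did pass as higher in cycling-like cells. Members called in this comparison were fewer, as a share, than all genes called.

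Because each immunoproteasome gene replaces a known constitutive partner, the pair was also read as a share: the counts of the immunoproteasome gene over the counts of both. These shares describe transcript tags and not protein, and they carry no test. For the chymotrypsin-like pair the *Psmb8* share was 52.6, 53.5, 53.1 and 58.1% in stem cell-like cells and 75.2, 72.5, 72.5 and 72.6% in enterocyte-like cells. The classes were apart in every replicate, at means of 54.3 ± 2.56 and 73.2 ± 1.32% (SD, n = 4). Goblet-like cells lay between them at 62.9 ± 5.83%, the Paneth-like cluster was at 64.2 ± 4.18% (33.3% at Leiden resolution 0.5) and cycling-like cells, with a wide spread, at 60.6 ± 10.5%. Immune cells were at 73.1 ± 7.41%, within their spread of enterocyte-like cells.

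The trypsin-like pair was dominated by *Psmb10* in every class with replicates, from 78.7 ± 4.75% in stem cell-like to 87.9 ± 1.55% in enterocyte-like cells. Goblet-like cells, at 85.0 ± 3.87%, were within their spread of enterocyte-like cells. The Paneth-like cluster was at 84.3 ± 2.12%, from 149 of 176 counts in all. Its highest value of 85.7% and the lowest enterocyte-like value of 85.9% were too close to tell apart on so few counts. The pair of *Psmb9* and *Psmb6* leaned to its constitutive gene: the *Psmb9* share was 29.9 ± 4.58% in enterocyte-like, 22.8 ± 3.91% in stem cell-like and 15.6 ± 4.01% in goblet-like cells. The highest values were in T or NK-like cells, where pooled cells gave *Psmb9* a share of 55.8% (24 of 43 counts, 95% Clopper-Pearson interval 39.9 to 70.9%) and *Psmb8* one of 79.6% (82 of 103 counts, 70.5 to 86.9%). The lowest was the *Psmb9* share of enteroendocrine-like cells, at 9.52% (6 of 63 counts, 3.58 to 19.6%). Intervals cover counting error only.

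**Figure D3:**
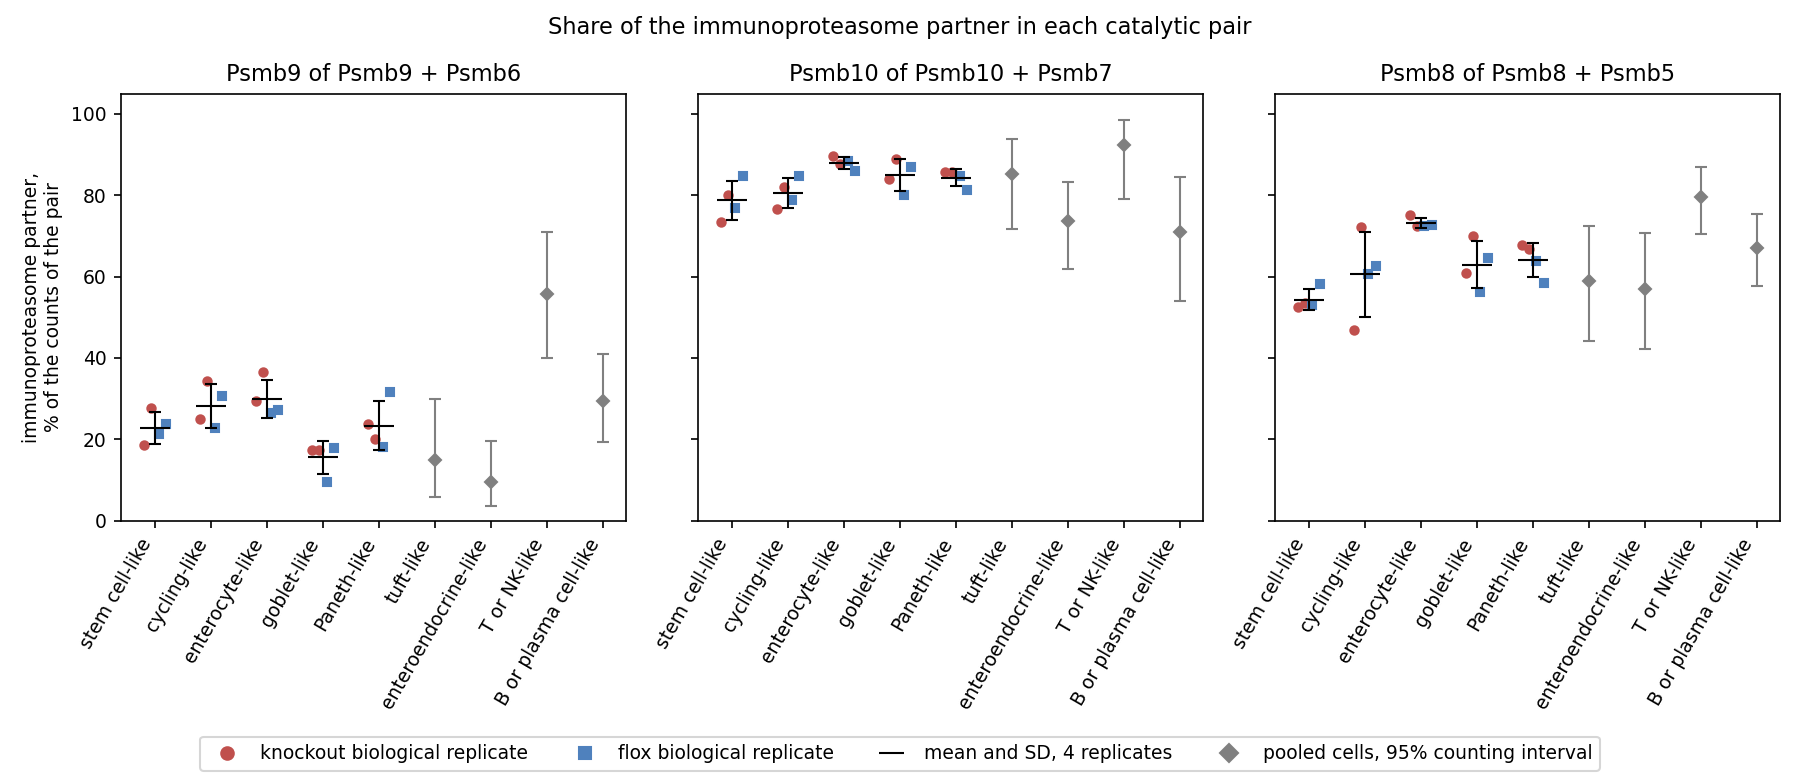
Counts of the immunoproteasome gene as a percent of the counts of each catalytic pair, by cell class, on a linear axis from 0. Circles and squares are the biological replicates with mean and SD (n = 4), and grey diamonds are pooled cells with exact 95% binomial intervals. The *Psmb8* share in the right panel is 54.3% in stem cell-like and 73.2% in enterocyte-like cells, with no overlap between their replicates.

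The 387 immune cells (the B or plasma cell-like and the T or NK-like classes) were then compared with the 4503 other cells of the same collections, with the biological replicate as a block. Immune cells had less transcript of many core and regulatory genes and of *Psmb10*, while *Psmb8* and *Psmb9* did not pass in either direction. The 2 immune classes lay on either side of epithelial cells in the summed immunoproteasome genes. Pooled over all cells the sum was 998.8 CPM in T or NK-like (142 counts) and 539.0 in B or plasma cell-like cells (126 counts), beside 776.0 in epithelial cells. *Psmb10* was at 187.3, 144.9, 153.1 and 208.8 CPM in immune cells and 409.4, 426.8, 385.3 and 351.8 in epithelial cells (log2 fold change -1.42 ± 0.29, adjusted p = 9.23e-06). The groups were far apart in every replicate. The pooled level of *Psmb10* in barcodes under 100 counts, taken here as free RNA, was 355 CPM (95% Poisson interval 282 to 440), above its level in immune cells. *Psmb8* was at 355.9, 458.8, 438.2 and 495.9 CPM in immune and 254.0, 359.3, 259.1 and 290.9 in epithelial cells. It was higher in immune cells within each replicate, but the log2 fold change of 0.35 ± 0.26 did not pass (adjusted p = 0.319). *Psmb9* was at 84.3, 96.6, 147.8 and 130.5 CPM against 89.5, 122.3, 87.1 and 95.5, with overlapping groups and a log2 fold change of 0.09 (adjusted p = 0.863).

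Of 42 members tested none rose and 14 fell in immune cells, where 12.2% of all 10028 genes tested rose and 21.9% fell. The median log2 fold change was -0.58 for the members and -0.36 for all genes tested, and 29 members lay below the latter. DESeq2 over the same genes gave -0.59 and -0.44. *Psma4*, an outer-ring subunit, was at 206.1, 217.3, 184.8 and 182.7 CPM in immune and 446.9, 412.9, 440.3 and 377.3 in epithelial cells (log2 fold change -1.34 ± 0.28, adjusted p = 2.26e-05). The other core genes that fell were *Psma6*, *Psma7*, *Psmb3*, *Psmb6* (-0.88, adjusted p = 0.0100) and *Psmb7* (-1.26, adjusted p = 0.0184), while *Psmb5* did not pass (-0.26, adjusted p = 0.557). *Psmb6* passed in 20 of 25 alternatives and *Psmb7* in 15 of 24.

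In the regulatory particle 2 of 6 ATPase genes (*Psmc1* and *Psmc5*) and 4 of 11 non-ATPase genes (*Psmd1*, *Psmd3*, *Psmd7* and *Psmd13*) fell. *Psmc1* was at 168.6, 265.6, 190.1 and 287.1 CPM in immune cells against 369.4, 371.5, 368.7 and 379.7 (log2 fold change -1.04 ± 0.28, adjusted p = 0.0013). *Psmd1*, a scaffold of the base, was at 103.0, 48.3, 84.5 and 156.6 CPM against 192.1, 161.9, 206.8 and 195.4 (-1.23 ± 0.34, adjusted p = 0.0016). *Psmd7* was at 215.4, 120.7, 95.02 and 78.3 CPM against 257.6, 227.7, 269.2 and 240.5 (-1.17 ± 0.31, adjusted p = 0.0010). In each of these 3 genes every immune value was below every epithelial value. *Psme2* was also lower, at 337.2, 386.4, 253.4 and 287.1 CPM against 513.8, 514.9, 433.0 and 505.9 (-0.90 ± 0.26, adjusted p = 0.0032), and *Psme1* did not pass (-0.45, adjusted p = 0.175).

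*Psmb10*, *Psma4* and *Psmc1* passed in 25 of 25 alternatives of this comparison. Immune cells were shallower, at a median of 725 counts per cell against 1350, and were few in some replicates (121, 47, 192 and 27 cells). With every cell thinned to 500 counts 8 members fell, and without flox biological replicate 1, which holds the most immune cells, 5 fell. *Psmd7* (-0.58, adjusted p = 0.165) and *Psme2* (-0.67, adjusted p = 0.0504) were among those that no longer passed after thinning. In cells of 500 to 1500 counts *Psmd7* passed (-1.09, adjusted p = 0.0094) and *Psme2* did not (-0.49, adjusted p = 0.191). Epithelial RNA was present in the immune class: 97 of the 387 cells had a keratin or *Epcam* count, and 4 epithelial gate genes summed to 641 CPM (496 to 1002) beside 7157 in epithelial cells. The part of that RNA in these levels was not tested.

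Within the immune cells the T or NK-like class carried more *Psmb10* and *Psme1* than the B or plasma cell-like class. The test used the 3 biological replicates with at least 20 cells of both classes. *Psmb10* was at 258.1, 234.9 and 269.9 CPM in T or NK-like cells of knockout 1, knockout 2 and flox 1, and at 158.4, 49.7 and 78.1 in B or plasma cell-like cells (log2 fold change 1.46 ± 0.49, adjusted p = 0.0178). *Psme1* was at 451.7, 610.7 and 553.2 CPM against 264.0, 347.8 and 294.9 (log2 fold change 0.92 ± 0.34, adjusted p = 0.0342). Of 20 members tested 2 rose and none fell, where 17.1% of all 1180 genes tested rose and 12.8% fell. These 2 calls rest on few counts (36 *Psmb10* counts in all T or NK-like cells) and passed in 7 of 10 and 7 of 15 alternatives. *Psmb8* pooled over all cells was at 576.8 CPM in T or NK-like cells (95% Poisson interval 458.7 to 715.9) and 329.4 in B or plasma cell-like cells (260.0 to 411.7), with a log2 fold change of 0.60 that did not pass (adjusted p = 0.193). *Psme2* (0.52, adjusted p = 0.310) and *Psmb6* (-0.75, adjusted p = 0.288) did not pass either.

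The last question, the study's own, was whether loss of epithelial *Ptger4* changed these genes. No member passed in any cell group in the fit without a block. In all kept cells 0 of 43 members were called, where 0.00947% of 10555 genes were (1 gene), and in epithelial cells 0 of 43, where 0.00969% of 10318 were. The count was 0 of 40 in stem cell-like cells (0.28% of all genes called), 0 of 42 in cycling-like cells (0.0143%), 0 of 40 in enterocyte-like cells (0.431%), 0 of 42 in goblet-like cells (0.0156%) and 0 of 23 in immune cells (0%). At an unadjusted p under 0.05 edgeR gave 1 member in all kept, epithelial, immune, cycling-like and goblet-like cells and 2 in stem cell-like and enterocyte-like cells. The same limit was met by 235 of all genes tested in all kept cells, 243 in epithelial, 26 in immune, 182 in stem cell-like, 218 in cycling-like, 307 in enterocyte-like and 129 in goblet-like cells. DESeq2 gave 1 member at an unadjusted p under 0.05 in all kept, epithelial, cycling-like, enterocyte-like and goblet-like cells and 0 in immune and stem cell-like cells, and called 0 members after adjustment in each of the 7. The median log2 fold change of the members was 0.04 in all kept cells, beside 0.00 for all genes. Whether the immune to epithelial difference itself depended on genotype gave 0 of 42 members and 0% of 10028 genes, with 0 members and 113 of all genes at an unadjusted p under 0.05, and 0 members by DESeq2 at either limit. The smallest p there was that of *Psmc6* (log2 difference 1.43 ± 0.80, adjusted p = 1), followed by *Psmd7* (0.96 ± 0.72) and *Psmc3* (-0.88 ± 0.66).

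The member with the smallest p in each of the 7 genotype comparisons was *Psme2b*, a retrogene copy of the PA28 gene *Psme2*. In epithelial cells it was at 149, 228 and 187 CPM in the knockout collections and 95.2, 140 and 123 in the flox collections, which did not overlap. Its log2 fold change was 0.75 ± 0.18 (unadjusted p = 0.00149, adjusted p = 0.999992) there and 0.94 ± 0.24 in enterocyte-like cells (unadjusted p = 5.15e-04, adjusted p = 0.0839). In enterocyte-like cells it passed with the biological replicate number as a block (0.93, adjusted p = 0.0052) and without knockout biological replicate 1 (1.06, adjusted p = 0.0298). In goblet-like cells it passed without flox biological replicate 2 (1.54, adjusted p = 0.0497). Within the 2 sets of collections that shared barcodes the knockout to flox log2 ratio in epithelial cells was 0.49 and 0.71. Its near-identical source gene can share reads with it, and it lies within other annotated genes on the same strand, so its counts are uncertain. *Psme2* itself was at 539, 486 and 515 CPM against 399, 536 and 506, with overlapping groups (log2 fold change 0.17 ± 0.18).

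*Psmd3*, a lid subunit, went the other way, at 47.6, 54.6 and 59.5 CPM in the knockout collections and 79.1, 77.9 and 60.5 in the flox collections of epithelial cells (log2 fold change -0.31 ± 0.21, unadjusted p = 0.158). Nearly all of that gap was in one set, with log2 ratios of -0.73 and -0.07. In stem cell-like cells its log2 fold change was -0.75 ± 0.37 and in enterocyte-like cells -0.80 ± 0.36, with unadjusted p of 0.0429 and 0.0321. *Psme2b* and *Psmd3* were the 2 of 43 members whose knockout and flox collections did not overlap in all kept cells, where 7.01% of all genes tested did not, and also the 2 of 43 in epithelial cells, where 6.76% did not.

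The immunoproteasome genes overlapped between the genotypes in epithelial cells, by collection. *Psmb8* in epithelial cells was at 322, 180 and 359 CPM in the knockout collections and 266, 239 and 291 in the flox collections. The knockout collections held both the highest and the lowest value, although the first and second were read as 1 biological replicate. The log2 fold change was 0.19 ± 0.20 for *Psmb8*, 0.25 ± 0.20 for *Psmb9* and 0.22 ± 0.18 for *Psmb10*, with unadjusted p of 0.363, 0.228 and 0.241. In immune cells *Psmb8* was at 395, 299 and 459 CPM against 387, 512 and 496, again overlapping (log2 fold change -0.23 ± 0.37). *Psmb9* in immune cells was at 110.6, 46.0 and 96.6 CPM in the knockout collections and 125.9, 179.1 and 130.5 in the flox collections, which did not overlap. It had too few counts for the genotype test in immune cells, and the genotype difference of its immune to epithelial contrast was -0.92 ± 0.77 (unadjusted p = 0.231). Of the 42 members tested between immune and epithelial cells, 4 (*Psma3*, *Psmb3*, *Psmb9* and *Psme2b*) had immune collections that did not overlap by genotype, where 7.47% of all 10028 genes did not. The constitutive partners in epithelial cells had log2 fold changes of 0.09 ± 0.19 (*Psmb5*), 0.05 ± 0.19 (*Psmb6*) and 0.20 ± 0.23 (*Psmb7*), and *Psme1* one of 0.15 ± 0.18.

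In enterocyte-like cells, the class with the most immunoproteasome transcript among those with replicates, the knockout to flox log2 fold change was 0.47 ± 0.25 for *Psmb9*, 0.28 ± 0.20 for *Psmb8* and 0.25 ± 0.19 for *Psmb10* (unadjusted p of 0.0776, 0.175 and 0.191). In stem cell-like cells the same genes were at 0.05 ± 0.33, -0.18 ± 0.26 and 0.01 ± 0.25. The classes were not tested against each other for this difference. Next to *Psme2b* and *Psmd3*, the member with the smallest p was the proteasome activator gene *Psme4* in cycling-like cells (-0.59 ± 0.29, unadjusted p = 0.0531), the ATPase gene *Psmc4* in stem cell-like cells (-0.56 ± 0.33, unadjusted p = 0.0894) and the ATPase gene *Psmc3* in immune cells (-0.92 ± 0.54, unadjusted p = 0.107). In goblet-like cells it was *Psmd12* (-0.40 ± 0.29, unadjusted p = 0.180). None of these passed after adjustment.

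**Figure D4:**
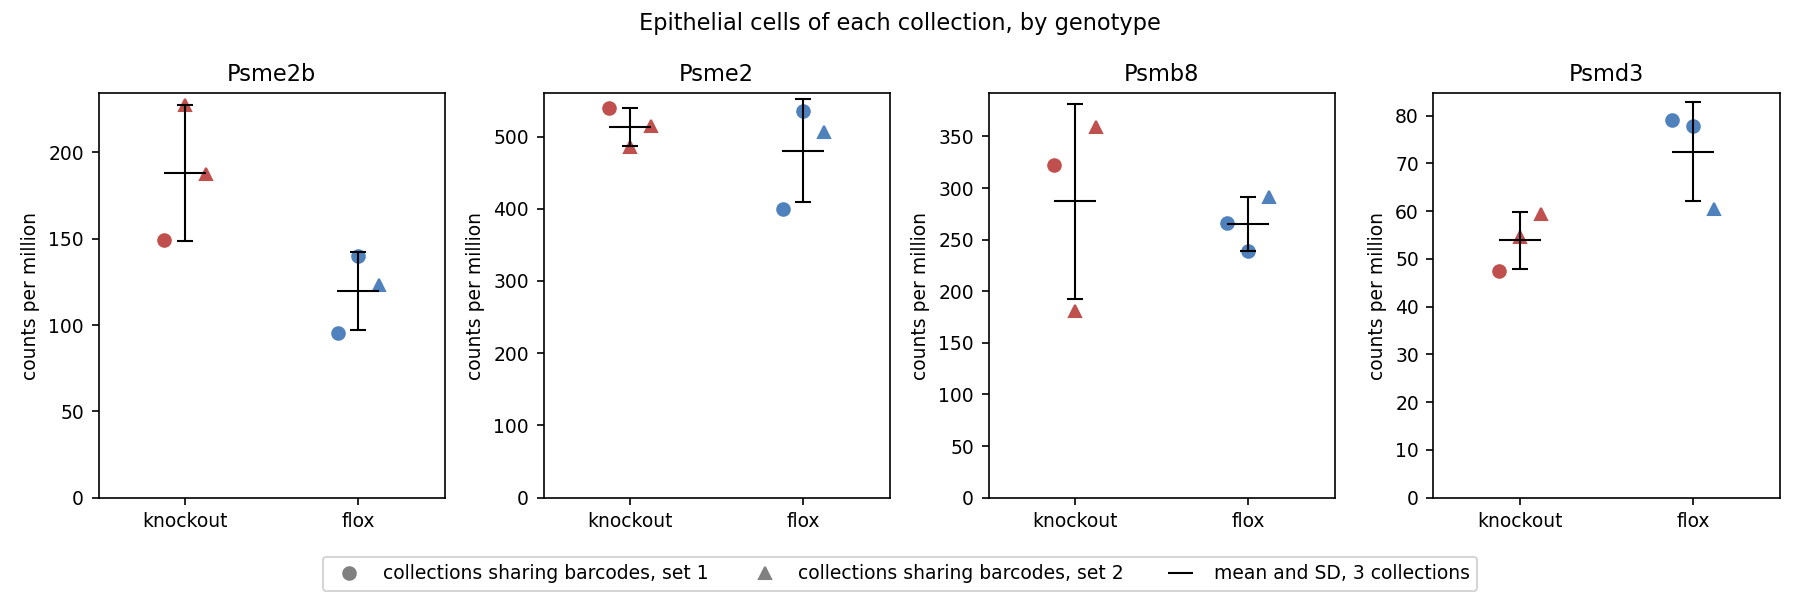
Level of 4 members in the epithelial cells of each collection, in CPM on linear axes from 0, with mean and SD over the 3 collections of a genotype. Circles and triangles are the 2 sets of collections that shared cell barcodes. The knockout and flox collections are apart for *Psme2b* (149 and above against 140 and below) and for *Psmd3* (59.5 and below against 60.5 and above), and overlap for *Psme2* and *Psmb8*.

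Genes that work with the proteasome were counted by list, beside the shares of all genes given above for each comparison. Between enterocyte-like and stem cell-like cells the core assembly chaperones *Psmg1*, *Psmg2*, *Psmg3* and *Psmg4* all fell, with log2 fold changes of -1.65, -2.54, -1.91 and -2.51, while the maturation factor *Pomp* rose by 0.48 ± 0.14 (6 of the list tested). Among the regulators *Irf1* (1.04 ± 0.19) and *Irf8* (0.47 ± 0.17), which act in interferon responses, rose, as did *Nfe2l1* (0.98 ± 0.17) and *Nfe2l2* (0.98 ± 0.14), which drive proteasome and antioxidant genes. Of 12 class I presentation genes 8 rose and none fell, among them *H2-K1* (1.03 ± 0.11), *B2m* (0.75 ± 0.09) and the peptide transporter gene *Tap1* (1.33 ± 0.30). Among 11 receptors, shuttles and deubiquitinases *Vcp*, an unfoldase upstream of the proteasome, rose (0.31 ± 0.12) and *Uchl5*, *Usp14* and *Adrm1* fell.

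In goblet-like cells *Psmg2* and *Psmg4* fell (-1.10 and -1.38) and *Vcp* (0.77 ± 0.13) rose against stem cell-like cells. Of the regulators *Nfe2l1* rose (0.71 ± 0.18), and of 12 class I genes 6 rose and *B2m* fell (-0.56 ± 0.11). In cycling-like cells *Psmg2* and *Psmg4* fell (-0.84 and -1.09) and *Nfe2l2* rose (0.67 ± 0.13). Immune cells had more of 6 of 13 class I genes than epithelial cells, such as *B2m* (1.43 ± 0.22), *H2-D1* (1.87 ± 0.23) and *Tap2* (3.06 ± 0.52), and more *Nlrc5*, the class I transactivator (3.08 ± 1.12). They had less *Nfe2l2* (-1.75 ± 0.34), *Nfe2l1* (-0.92 ± 0.35), *Irf1* (-1.15 ± 0.40) and *Vcp* (-1.29 ± 0.28), and none of the 6 assembly genes passed. In T or NK-like cells 5 of 8 class I genes were higher than in B or plasma cell-like cells, with *Irf8* lower (-3.36 ± 0.65).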

How the data were processed

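The authors deposited 1 table of raw counts per collection (unique molecular identifiers per gene and barcode), made from polyA RNA by Drop-seq; alignment with STAR 2.6 to mm10 is named per the submitters' processing notes, and the counting program and annotation are not given in sources used here. The members and the gene lists were chosen with earlier results of these data known. Barcodes with at least 300 genes and at most 25% mitochondrial counts were clustered with scanpy 1.11.5 (2000 variable genes, none of them a member, 30 components, 15 neighbours, Leiden resolution 1.0). Naming thresholds were set after seeing the data, and no doublet caller was run; the largest barcode held 126037 counts. Counts were summed per biological replicate and class and tested with edgeR 4.0.16 (quasi-likelihood, TMM, filterByExpr minimum 10, Benjamini-Hochberg threshold 0.05; SE is the log2 fold change over the root of F), with the biological replicate as a block between classes. Levels (CPM) are the summed counts scaled to their total. DESeq2 1.42.0, filters, clusterings, thinning and left-out replicates were alternatives. Classes with under 20 cells in a replicate were pooled. Named in every comparison were the 3 immunoproteasome genes, their partners, *Psme1* and *Psme2*, with up to 5 called members per direction by p, or the 3 smallest p where none passed. Script steps were tested on simulated data. Some genes of the pathway lists are not reported here.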

Additional observations from a re-analysis of the deposited data

Results flagged for a closer look

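Of 119 groups of 4 biological replicates (part sums, pair shares and named members by class), 9 had 1 replicate far from the other 3; chance alone flags about 1 in 20 groups. Flox biological replicate 2, with 27 immune cells, stood high in immune cells for *Psmb7* (104.4 CPM, next 37.47) and for the summed non-ATPase genes (1488 CPM, next 1171), and low for the *Psmb10* share of its pair (66.67%, next 83.33%). Flox biological replicate 1 was low for *Psme2* in epithelial cells (433 CPM, next 505.9), for *Psme2* in goblet-like cells (279.5 CPM, next 384.4) and for the *Psmb9* share in goblet-like cells (9.545%, next 17.26%). Knockout biological replicate 1 had the highest *Psmb8* share in enterocyte-like cells (75.17%, next 72.56%). Flox biological replicate 2 had the highest *Psmb8* share in stem cell-like cells (58.14%, next 53.52%). Knockout biological replicate 2 had the highest immunoproteasome sum in epithelial cells (908.4 CPM, next 752.9).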

How the results depend on the processing

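Counts of members called were within 1.5 times the reported count in 203 of 246 alternative results, and moved in 43. Log2 fold changes of named members kept direction and side of the threshold in 2351 of 2510. Of the rest, 106 no longer passed, 19 newly passed, 32 moved and 2 reversed: *Psmb5* between enterocyte-like and stem cell-like cells at Leiden resolution 0.5 (0.031, adjusted p = 0.823) and *Psmb8* between goblet-like and stem cell-like cells at 10% mitochondrial counts (-0.49, adjusted p = 0.0301). Pair shares stayed within 1 SD in 107 of 123. The 10% limit and the resolutions also change which cells carry a class name. The causes were not tested.

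For enterocyte-like against stem cell-like cells (22 members called) DESeq2 gave 9, no filter on low counts 13, resolution 2.0 13 and the larger cluster of each class 9. For goblet-like cells (10) DESeq2 gave 3, no filter 4, at least 600 genes 5 and leaving out shared barcodes 6. For immune against epithelial cells (14) at least 600 genes gave 8, thinning to 500 counts 8, B or plasma cell-like cells alone 6 and cells of 500 to 1500 counts 9. For T or NK-like against B or plasma cell-like cells (2) DESeq2 and no filter gave 0 and the 10% limit 1. For cycling-like cells (2) DESeq2, resolution 2.0, leaving out shared barcodes and no replicate block each gave 0, and the 10% limit and clustering with the members each gave 1.

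Leaving out 1 replicate at a time gave 13 to 22 members for enterocyte-like (lowest without flox biological replicate 1), 4 to 10 for goblet-like (lowest without knockout biological replicate 2), 5 to 15 for immune (5 without flox biological replicate 1, 7 without knockout biological replicate 2), 0 to 2 for T or NK-like (flox biological replicate 2 is not in that test) and 0 to 3 for cycling-like cells. By genotype it gave 0 to 1 in enterocyte-like and goblet-like cells, in both *Psme2b*, and 0 to 0 in the other 5 genotype comparisons. Leaving out collection 3 is the same as leaving out biological replicate 2. The replicate numbers were not taken to pair samples across genotypes (correlations of same-numbered deviations 0.32 for biological replicates, and -0.12, 0.04 and 0.36 for collections). With a replicate block by biological replicate number 1 member (*Psme2b*) passed in enterocyte-like cells and 0 in the other genotype comparisons.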
